A study of Homo sapiens with 12 samples.

Results

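The genes described here are 37 members of fatty acid oxidation, the breakdown of fatty acids to acetyl-CoA, measured by RNA sequencing in MOLM14 cells, a line grown from a human acute myeloid leukemia. They were matched by symbol among the 61487 gene identifiers of the deposited count table. All 12 libraries came from cells that carry shRIP140, an shRNA that doxycycline switches on and that targets RIP140, a nuclear receptor coregulator encoded by NRIP1. The groups were ATRA+DOX, ATRA (all-trans retinoic acid, 1 µM for 48 h), DOX (doxycycline, 50 ng/mL) and untreated, each with 3 libraries that the labels call biological replicates. The ATRA+DOX cells received both agents at those doses, and the design text gives 48 h for the treatments. Every group, the untreated one included, had the construct, and no group with another shRNA or with doxycycline but no shRNA was analysed here, so the effects of doxycycline itself and of RIP140 loss cannot be told apart. The comparisons asked how each agent, alone and with the other, moved these genes in this 1 cell line.

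Fatty acids enter the pathway as CoA esters made by acyl-CoA synthetases, and long chains cross into mitochondria on carnitine through CPT1, the carrier SLC25A20 and CPT2. Inside, each turn of the spiral uses an acyl-CoA dehydrogenase, a hydratase, a hydroxyacyl-CoA dehydrogenase and a thiolase, and electron transfer flavoprotein hands the electrons to the respiratory chain. Unsaturated chains need auxiliary isomerases and reductases, and peroxisomes shorten very long and branched chains with enzymes of their own. RIP140 is known as a corepressor of oxidative metabolism genes in mouse fat and muscle, where nuclear receptors such as PPARα and ERRα turn such genes on.

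Library totals ran from 2.69 to 19.36 (in units of 1e6 counts), and DOX replicate 3 was the smallest. NRIP1 had 15.9, 20.9 and 19.9 CPM in ATRA+DOX libraries, 38.4, 41.1 and 51.9 CPM in ATRA libraries, 19.2, 14.99 and 15.7 CPM in DOX libraries and 59.7, 58.9 and 53.3 CPM in untreated libraries. Every library given doxycycline lay below every library without it, and the log2 change was −1.22 ± 0.13 (adjusted p = 6.49e-06) in ATRA+DOX against ATRA and −1.77 ± 0.13 (adjusted p = 1.47e-07) in DOX against untreated cells. The share of counts on the mitochondrial ribosomal RNAs MT-RNR1 and MT-RNR2 differed as well, at 1.984, 2.024 and 1.235% in ATRA+DOX libraries and 2.087, 2.745 and 2.641% in ATRA libraries. DOX libraries held 2.177, 1.02 and 1.296% and untreated libraries 2.538, 2.851 and 4.6%. It was lowest in DOX replicate 2 and highest in untreated replicate 3. Of 13 myeloid markers 12 averaged at least 1 CPM over all 12 libraries together (counts per 1e6 counts, scaled by TMM), and CD14 was the exception. Of the markers of other cell types, 3 of 10 lymphoid, 1 of 11 erythroid and megakaryocytic and 3 of 12 fibroblast, epithelial and endothelial genes reached that level, and the lymphoid gene CD3E, the erythroid and megakaryocytic genes HBA2, HBG1, HBG2, PF4 and PPBP, and COL3A1, EPCAM and VWF of the last list were at 0 in all libraries. The last list's summed level was 235 to 278 CPM in ATRA+DOX, 189 to 200.4 in ATRA, 161 to 179 in DOX and 107 to 123 CPM in untreated libraries, with nearly all of it from PECAM1, KRT18 and KRT8. In ATRA against untreated cells PECAM1 rose by 1.27 ± 0.10 (adjusted p = 3.22e-09), KRT18 fell (−0.55 ± 0.11 (adjusted p = 0.00103)) and KRT8 had −0.28 ± 0.16 (adjusted p = 0.189). In DOX PECAM1 rose by 0.70 ± 0.10 (adjusted p = 0.000574) and KRT18 by 0.43 ± 0.11 (adjusted p = 0.0149), and KRT8 had 0.38 ± 0.15 (adjusted p = 0.0974). The lymphoid list summed to 12.1 to 18.7 CPM in ATRA+DOX, 15.3 to 20.2 in ATRA, 24.0 to 31.1 in DOX and 23.1 to 26.1 CPM in untreated libraries, and the erythroid and megakaryocytic list to 2.17 to 3.25 CPM in ATRA+DOX, 1.40 to 2.66 in ATRA, 1.54 to 3.84 in DOX and 1.20 to 1.71 CPM in untreated libraries. The part of these markers in the results below was not tested.

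Of the 37 members, 32 had enough counts to be tested and 5 did not. The untested genes were PDK4, a kinase that holds back glucose oxidation (1 count in all 12 libraries), ACADL, the long-chain acyl-CoA dehydrogenase (0 counts), CPT1B, the muscle form of CPT1 (57 counts), CROT, the peroxisomal carnitine octanoyltransferase (52 counts), and ECI2, an enoyl-CoA isomerase (22 counts). MOLM14 cells thus held next to no counts of the muscle CPT1 or of PDK4, while CPT1A, the widely expressed CPT1, had 23.4 ± 0.892 CPM per kilobase of exon (SD, n = 3) in untreated cells. Of the exon bases of CPT1B 66.4%, and of those of ECI2 29.8%, are shared with other genes in GENCODE 29. The few counts of these 2 genes may not all be their own or may have been lost.

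Per length of the union of all annotated exons, the member with the highest level was ECHS1, the short-chain enoyl-CoA hydratase. It had 130.0 ± 6.40 CPM per kilobase in ATRA+DOX, 119 ± 3.43 in ATRA, 109.9 ± 4.75 in DOX and 82.3 ± 3.93 in untreated cells (SD, n = 3). In untreated cells it was followed by HADHA, the alpha subunit of the trifunctional protein (57.4 ± 1.43), and ACADVL, the very-long-chain acyl-CoA dehydrogenase (51.6 ± 2.98 CPM per kilobase). Before division by length, untreated cells had 133 CPM of ECHS1, 251.5 of HADHA and 251 of ACADVL. The order of members thus depends on the length used, and the lengths of the transcripts in these cells were not measured. ECH1, ETFA and HADHB came next with 27.3 ± 1.58, 26.6 ± 2.13 and 25.4 ± 2.20 CPM per kilobase, which do not differ beyond their spread. The carnitine carrier SLC25A20 (3.57 ± 0.137) and CPT2 (3.15 ± 0.293 CPM per kilobase) lay far below CPT1A. Before division by length the means were 7.08 CPM for SLC25A20, 32.9 for CPT2 and 153 for CPT1A. Both genes lay below CPT1A either way, but their order between themselves depends on the length. The carnitine importer SLC22A5 had only 0.0962 ± 0.0286 and ACAD11, an acyl-CoA dehydrogenase family member, 0.0876 ± 0.0276 CPM per kilobase in untreated cells.

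**Figure D1:**
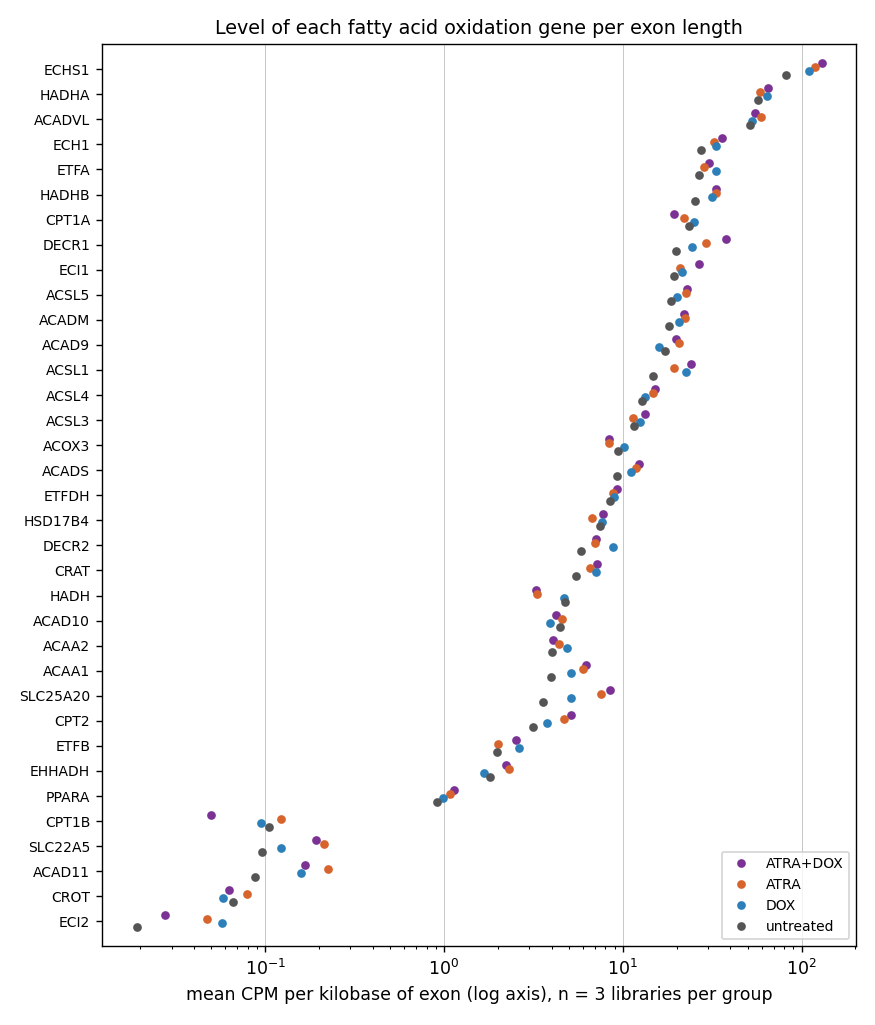
Mean CPM per kilobase of exon (log axis) of the members with counts in every group, ordered by the untreated level, with 1 point for each group of 3 libraries. Untreated values run from below 0.1 for ECI2, CROT, ACAD11 and SLC22A5 to 82.3 for ECHS1. PDK4 and ACADL are not drawn because at least 1 group had no counts.

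Promoter windows from RefSeq (GRCh38.p14) were found for 28 of the 37 members and ran from 250 bases before to 50 bases after a gene's start. Nuclear receptors that pair with RXR, the PPARs and retinoic acid receptors among them, bind repeats of the hexamer AGGTCA. The hexamer, on either strand, was in 2 of the members' 39 windows, those of ACSL5 and ACAD10, and in 13.8% of all 35116 windows. Direct repeats of the hexamer with 1, 2 or 5 bases between (AGGTCANAGGTCA, AGGTCANNAGGTCA and AGGTCANNNNNAGGTCA) were in 0 of the members' windows and in 0.0228, 0.00285 and 0.0057% of all windows, and each such repeat also counts as a hexamer. A match is a description of the letters, and no match says only that these letters are not in this window. The 250 bases before the start are printed for both genes with a hexamer, in capitals, and for SLC25A20, the member with a called rise in ATRA and in DOX and a fold above 2 in ATRA, whose window holds none.
SLC25A20 (chr3:48898883-48899132, minus strand): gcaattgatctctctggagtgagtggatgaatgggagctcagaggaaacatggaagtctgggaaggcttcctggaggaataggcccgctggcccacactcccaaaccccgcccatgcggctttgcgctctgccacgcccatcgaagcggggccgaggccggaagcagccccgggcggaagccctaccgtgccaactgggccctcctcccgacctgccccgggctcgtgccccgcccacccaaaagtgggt
ACSL5 (chr10:112375018-112375267, plus strand): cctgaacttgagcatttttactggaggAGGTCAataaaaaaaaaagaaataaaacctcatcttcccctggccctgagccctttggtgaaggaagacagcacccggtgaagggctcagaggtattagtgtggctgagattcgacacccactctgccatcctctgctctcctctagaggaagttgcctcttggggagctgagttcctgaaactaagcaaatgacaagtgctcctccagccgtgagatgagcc
ACAD10 (chr12:111685803-111686052, plus strand): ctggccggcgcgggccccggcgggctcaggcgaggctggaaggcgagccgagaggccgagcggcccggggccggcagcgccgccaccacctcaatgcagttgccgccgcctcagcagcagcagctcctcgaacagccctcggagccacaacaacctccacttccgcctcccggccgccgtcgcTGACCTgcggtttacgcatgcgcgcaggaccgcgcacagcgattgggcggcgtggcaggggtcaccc
In ACSL5 the hexamer lies on the gene's strand at bases −223 to −218 from the start, and in ACAD10 on the other strand at −67 to −62. ACSL5 rose in ATRA and ACAD10 passed no test in any comparison, as given with their values.

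More of these genes passed the test in ATRA (15) than in DOX (9), each against untreated cells. Of these, 7 and 1 did so in every alternative setting described below. In ATRA against untreated cells 14 of the 32 tested members rose and 1, HADH, fell, where called means an adjusted p under 0.05 (edgeR quasi-likelihood test, Benjamini-Hochberg over all genes tested). Among all 16104 genes tested 28.9% were called, 15.7% higher and 13.2% lower. In DOX against untreated cells 9 members rose and 0 fell, beside 15.2% of all genes called, 8.08% higher and 7.10% lower. With ATRA present DOX changed 1 member, DECR1, in ATRA+DOX against ATRA, beside 4.43% of all genes (1.89% higher, 2.54% lower), so this count is near the background. ATRA+DOX against DOX gave 6 higher and 3 lower members beside 19.0% of all genes (10.7% higher, 8.24% lower). ATRA+DOX against untreated cells gave 16 higher and 2 lower beside 38.0% (19.6% higher, 18.5% lower). The median log2 change of the tested members was 0.26 for ATRA, 0.21 for DOX, 0.04 for ATRA+DOX against ATRA, 0.11 for ATRA+DOX against DOX and 0.30 for ATRA+DOX against untreated cells. The median of all genes ran from −0.0146 (ATRA) to 0.0054 (DOX) over these comparisons. Fewer cells of a kind and less RNA per cell cannot be told apart in such bulk values. The comparisons share libraries: the untreated group enters 3 of them. In all, 22 tested members were called in at least 1 of the 5 comparisons of 1 group with another and 10 in none. The counts by role given below are to be read beside these shares of all genes.

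**Figure D2:**
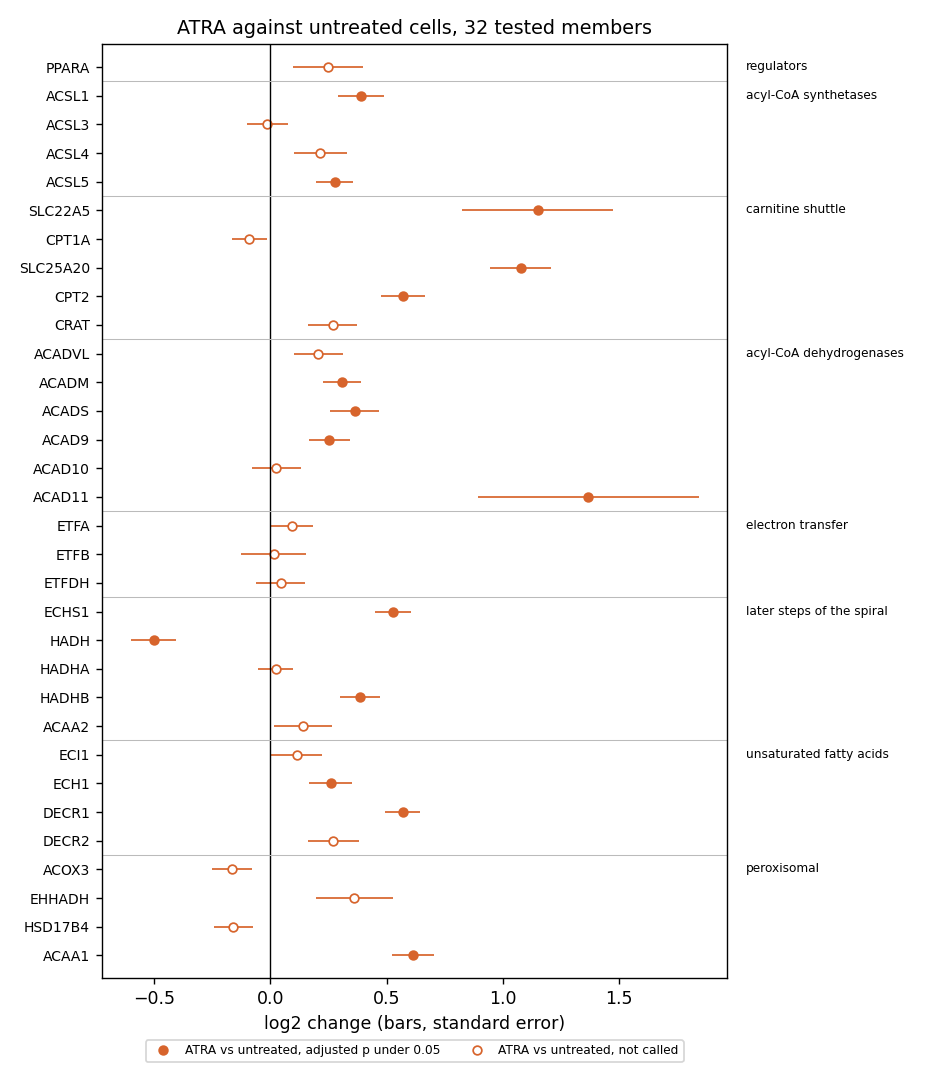
Log2 change in ATRA against untreated cells for each of the 32 tested members, grouped by role, with standard errors, from 3 libraries a group. Filled points passed an adjusted p of 0.05: 14 lie above 0 and HADH lies below.

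Among the regulators, PPARA, the nuclear receptor that turns on fatty acid oxidation genes, was tested and PDK4 was not. PPARA had 15.03, 14.7 and 15.6 CPM in ATRA+DOX libraries, 15.1, 12.3 and 15.7 CPM in ATRA libraries, 15.9, 10.8 and 12.3 CPM in DOX libraries and 11.7, 10.6 and 13.9 CPM in untreated libraries. The ATRA+DOX libraries lay above the untreated ones and the other groups overlapped, and no comparison was called: the log2 change was 0.31 ± 0.15 (adjusted p = 0.106) in ATRA+DOX, 0.25 ± 0.15 (adjusted p = 0.235) in ATRA and 0.10 ± 0.16 (adjusted p = 0.703) in DOX against untreated cells.

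Of the 4 acyl-CoA synthetases, which make the CoA esters, ACSL1 and ACSL5 rose in ATRA and ACSL1 alone passed the test in DOX. ACSL1, a long-chain synthetase (chromosome 4, 184755595 to 184826818, GRCh38, with GENCODE 29 gene bounds here and below), had 165, 146 and 145 CPM in ATRA+DOX libraries, 121, 117 and 127 CPM in ATRA libraries, 161, 119.7 and 145 CPM in DOX libraries and 91.9, 100.4 and 86.1 CPM in untreated libraries. All 9 libraries given an agent lay above all untreated libraries. Its log2 change was 0.39 ± 0.10 (adjusted p = 0.00482) in ATRA, 0.61 ± 0.10 (adjusted p = 0.00106) in DOX and 0.72 ± 0.10 (adjusted p = 8.98e-06) in ATRA+DOX, each against untreated cells. Against ATRA alone, ATRA+DOX gave 0.33 ± 0.10 (adjusted p = 0.0628), short of the threshold although the libraries did not overlap. ACSL5, also a long-chain synthetase, had 98.1, 95.8 and 98.1 CPM in ATRA+DOX libraries, 95.4, 91.4 and 101 CPM in ATRA libraries, 84.8, 88.01 and 82.5 CPM in DOX libraries and 74.7, 87.1 and 75.8 CPM in untreated libraries. The ATRA+DOX and ATRA libraries lay above the others, with 0.30 ± 0.08 (adjusted p = 0.00586) in ATRA+DOX and 0.28 ± 0.08 (adjusted p = 0.0124) in ATRA against untreated cells. ACSL3, a synthetase of the endoplasmic reticulum and lipid droplets, and ACSL4, which prefers arachidonate, were called in no comparison, with values of 77.3 to 100.8 CPM for ACSL3 and 64.7 to 103 CPM for ACSL4 over the 12 libraries.

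The carnitine shuttle genes moved in both directions. In ATRA 3 of its 5 tested genes rose (SLC22A5, SLC25A20 and CPT2), in DOX SLC25A20 and CRAT rose, and CPT1A was lower in ATRA+DOX than in DOX or untreated cells. Genes called higher made up 15.7% of all genes in ATRA and 8.08% in DOX. SLC25A20, the carrier that moves acylcarnitines across the inner membrane (chromosome 3, 48856931 to 48898993), had 14.97, 18.4 and 17.1 CPM in ATRA+DOX libraries, 14.7, 14.98 and 15.3 CPM in ATRA libraries, 10.1, 9.33 and 11.1 CPM in DOX libraries and 7.25, 6.77 and 7.24 CPM in untreated libraries. The 4 groups followed one another in that order, with overlap of the libraries between ATRA+DOX and ATRA only. Its level in ATRA was 2.11 times that of untreated cells, a log2 change of 1.08 ± 0.13 (adjusted p = 1.92e-06). The change was 0.48 ± 0.14 (adjusted p = 0.027) in DOX and 1.24 ± 0.13 (adjusted p = 2.52e-07) in ATRA+DOX against untreated cells, and 0.76 ± 0.13 (adjusted p = 0.000267) in ATRA+DOX against DOX.

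CPT2, which turns acylcarnitines back to acyl-CoA inside the mitochondrion (chromosome 1, 53196429 to 53214197), had 49.7, 57.6 and 54.4 CPM in ATRA+DOX libraries, 45.7, 48.9 and 51.9 CPM in ATRA libraries, 38.6, 38.3 and 41.9 CPM in DOX libraries and 33.1, 35.8 and 29.7 CPM in untreated libraries. All 6 libraries with ATRA lay above all 6 without it, with 0.46 ± 0.10 (adjusted p = 0.00177) in ATRA+DOX against DOX and 0.57 ± 0.10 (adjusted p = 9.39e-05) in ATRA against untreated cells. DOX against untreated cells gave 0.26 ± 0.10 (adjusted p = 0.0814), short of the threshold. CPT1A, the outer membrane palmitoyltransferase that sets the rate of entry (chromosome 11, 68754620 to 68844410), had 137, 120.3 and 124 CPM in ATRA+DOX libraries, 145, 143 and 144 CPM in ATRA libraries, 169.8, 157 and 165 CPM in DOX libraries and 147, 154 and 158 CPM in untreated libraries. The ATRA+DOX libraries were below all others: the log2 change was −0.37 ± 0.08 (adjusted p = 0.00168) against DOX and −0.27 ± 0.08 (adjusted p = 0.00798) against untreated cells. ATRA against untreated cells gave −0.09 ± 0.08 (adjusted p = 0.398), and DOX against untreated cells 0.10 ± 0.08 (adjusted p = 0.418).

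SLC22A5, the plasma membrane carnitine importer, had 2.65, 2.01 and 2.71 CPM in ATRA+DOX libraries, 2.10, 2.23 and 3.86 CPM in ATRA libraries, 1.51, 1.26 and 1.92 CPM in DOX libraries and 1.64, 0.943 and 1.10 CPM in untreated libraries. Each library with ATRA lay above each without it, at low levels. The log2 change was 1.01 ± 0.33 (adjusted p = 0.0188) in ATRA+DOX and 1.15 ± 0.33 (adjusted p = 0.011) in ATRA against untreated cells, and 0.76 ± 0.34 (adjusted p = 0.129) in ATRA+DOX against DOX. CRAT, which makes acetylcarnitine, had 28.6, 24.4 and 28.4 CPM in ATRA+DOX libraries, 26.8, 24.8 and 23.5 CPM in ATRA libraries, 25.5, 27.6 and 27.3 CPM in DOX libraries and 22.3, 21.7 and 18.8 CPM in untreated libraries. The untreated libraries were the lowest, with 0.38 ± 0.11 (adjusted p = 0.00716) in ATRA+DOX, 0.27 ± 0.11 (adjusted p = 0.0636) in ATRA and 0.36 ± 0.11 (adjusted p = 0.0318) in DOX against untreated cells. The untested CPT1B stayed at or below 0.718 CPM in every library.

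**Figure D3:**
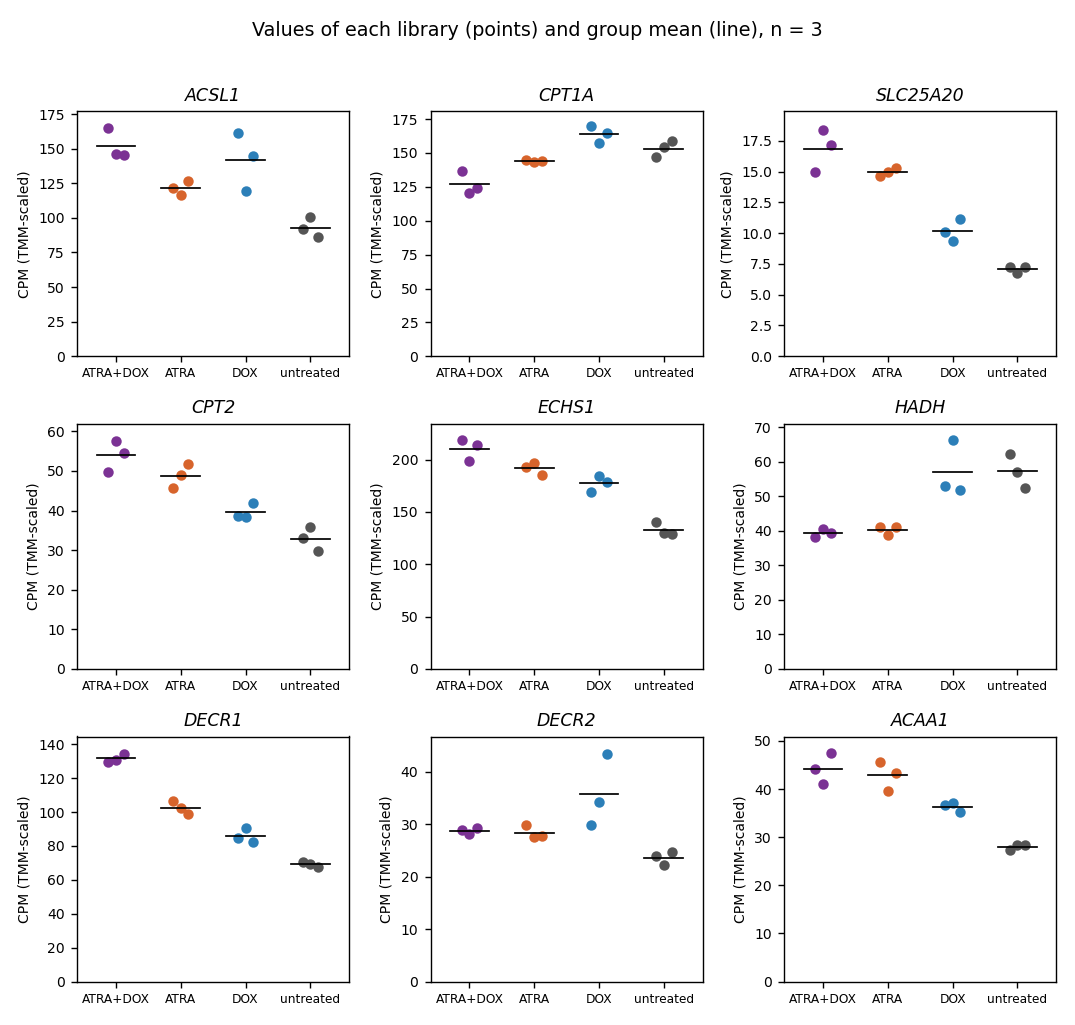
TMM-scaled CPM of every library for 9 members (points) with the group mean of 3 libraries (line), in the order ATRA+DOX, ATRA, DOX and untreated; each axis starts at 0. SLC25A20 lies between 15.0 and 18.4 CPM in ATRA+DOX and between 6.77 and 7.25 CPM in untreated libraries, while HADH lies lower in both groups with ATRA.

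Of the 6 tested acyl-CoA dehydrogenases, which take the first step of each turn, 4 rose in ATRA (ACADM, ACADS, ACAD9 and ACAD11) and 0 were called in DOX. Beside these counts, 15.7% of all genes were called higher in ATRA and 15.2% were called in DOX. Each of the 4 ATRA calls was lost when some single library was left out, as given below. ACADM, the medium-chain enzyme, had 104, 109.6 and 104 CPM in ATRA+DOX libraries, 102, 109 and 110.2 CPM in ATRA libraries, 92.97, 96.9 and 105 CPM in DOX libraries and 87.8, 93.1 and 78.7 CPM in untreated libraries. The libraries with ATRA lay above all untreated ones, at 0.29 ± 0.08 (adjusted p = 0.00757) in ATRA+DOX and 0.31 ± 0.08 (adjusted p = 0.00681) in ATRA. ACADS, the short-chain enzyme, had 30.7, 32.6 and 34.05 CPM in ATRA+DOX libraries, 32.9, 33.9 and 27.7 CPM in ATRA libraries, 27.5, 32.01 and 28.4 CPM in DOX libraries and 23.9, 26.3 and 23.5 CPM in untreated libraries. Untreated libraries were again the lowest, and the changes were 0.40 ± 0.10 (adjusted p = 0.00461) in ATRA+DOX, 0.36 ± 0.10 (adjusted p = 0.0119) in ATRA and 0.27 ± 0.11 (adjusted p = 0.0913) in DOX.

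ACAD9, an acyl-CoA dehydrogenase that also assists complex I assembly, had 87.7, 82.4 and 86.1 CPM in ATRA+DOX libraries, 90.6, 92.3 and 83.2 CPM in ATRA libraries, 72.8, 62.3 and 71.4 CPM in DOX libraries and 71.5, 68.9 and 82.3 CPM in untreated libraries. The DOX libraries were in the range of the untreated ones or below, and the changes were 0.32 ± 0.09 (adjusted p = 0.0155) in ATRA+DOX against DOX and 0.25 ± 0.09 (adjusted p = 0.0345) in ATRA against untreated cells. ACAD11 had 1.20, 0.883 and 0.759 CPM in ATRA+DOX libraries, 1.08, 1.49 and 1.25 CPM in ATRA libraries, 0.876, 0.275 and 1.54 CPM in DOX libraries and 0.676, 0.429 and 0.387 CPM in untreated libraries. The ATRA libraries lay above the untreated ones, at 1.37 ± 0.48 (adjusted p = 0.0353), but 83.8% of its exon bases are shared with other genes in GENCODE 29 and its level is low. ACADVL, the very-long-chain enzyme and the most abundant dehydrogenase, ranged from 209.9 to 318 CPM over the 12 libraries and was called in no comparison. ACAD10 ranged from 31.7 to 46.4 CPM and was also called in none.

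The electron transfer genes did not pass the test in ATRA, and 1 of the 3 rose in DOX. ETFA, the alpha subunit of electron transfer flavoprotein, had 153, 148 and 155 CPM in ATRA+DOX libraries, 145, 146 and 136 CPM in ATRA libraries, 144, 177 and 178 CPM in DOX libraries and 141, 138 and 121 CPM in untreated libraries. The DOX libraries lay above the untreated ones, at 0.31 ± 0.09 (adjusted p = 0.0265). ETFB, the beta subunit, had 16.4, 15.7 and 17.8 CPM in ATRA+DOX libraries, 13.6, 12.6 and 12.8 CPM in ATRA libraries, 13.6, 17.7 and 19.97 CPM in DOX libraries and 10.9, 13.7 and 13.9 CPM in untreated libraries. All ATRA+DOX libraries lay above all ATRA and all untreated libraries, at 0.34 ± 0.14 (adjusted p = 0.179) against ATRA and 0.36 ± 0.14 (adjusted p = 0.0444) against untreated cells. ETFDH, which passes the electrons on to ubiquinone, ranged from 35.5 to 46.9 CPM and was called in no comparison.

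The later steps of the spiral split, with 2 genes higher and 1 lower in ATRA. ECHS1 (chromosome 10, 133362480 to 133373689) had 218, 199 and 214 CPM in ATRA+DOX libraries, 193, 196 and 186 CPM in ATRA libraries, 169, 185 and 179 CPM in DOX libraries and 140.3, 130.1 and 129 CPM in untreated libraries. Its 4 groups followed one another in that order with no overlap between neighbours, and the change was 0.53 ± 0.08 (adjusted p = 1.7e-05) in ATRA, 0.42 ± 0.08 (adjusted p = 0.00252) in DOX and 0.66 ± 0.08 (adjusted p = 8.93e-07) in ATRA+DOX against untreated cells. ATRA+DOX against ATRA gave 0.13 ± 0.08 (adjusted p = 0.358). HADH, the short-chain 3-hydroxyacyl-CoA dehydrogenase (chromosome 4, 107989714 to 108035175), had 38.3, 40.5 and 39.4 CPM in ATRA+DOX libraries, 40.99, 38.7 and 41.1 CPM in ATRA libraries, 52.9, 66.2 and 51.8 CPM in DOX libraries and 62.1, 57.1 and 52.4 CPM in untreated libraries. It was the only member called lower in ATRA: all 6 libraries with ATRA lay below all 6 without it, at −0.55 ± 0.10 (adjusted p = 0.000384) in ATRA+DOX against DOX and −0.50 ± 0.10 (adjusted p = 0.000533) in ATRA against untreated cells. DOX against untreated cells gave 0.02 ± 0.10 (adjusted p = 0.92).

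HADHB, the beta subunit of the trifunctional protein, had 143, 136 and 147 CPM in ATRA+DOX libraries, 133, 148 and 145 CPM in ATRA libraries, 129, 149 and 128 CPM in DOX libraries and 116, 112 and 98.01 CPM in untreated libraries. Untreated libraries were the lowest, and the change was 0.39 ± 0.09 (adjusted p = 0.0015) in ATRA+DOX, 0.39 ± 0.09 (adjusted p = 0.00185) in ATRA and 0.32 ± 0.09 (adjusted p = 0.0185) in DOX. Its partner HADHA ranged from 245 to 299 CPM and was called in no comparison of 1 group with another, with 0.02 ± 0.07 (adjusted p = 0.851) in ATRA and 0.17 ± 0.07 (adjusted p = 0.127) in DOX. ACAA2, the mitochondrial thiolase, ranged from 17.8 to 26.9 CPM and was called in none.

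The 4 tested auxiliary genes for unsaturated fatty acids were all higher in ATRA+DOX than in untreated cells, beside 19.6% of all genes. DECR1, the mitochondrial 2,4-dienoyl-CoA reductase (chromosome 8, 90001405 to 90052092), had 129.8, 131 and 134 CPM in ATRA+DOX libraries, 106, 102 and 99.1 CPM in ATRA libraries, 84.6, 90.5 and 82.2 CPM in DOX libraries and 70.5, 69.6 and 67.5 CPM in untreated libraries. The groups followed one another in that order with no overlap. The change was 0.57 ± 0.07 (adjusted p = 4.76e-06) in ATRA, 0.32 ± 0.08 (adjusted p = 0.01) in DOX and 0.93 ± 0.07 (adjusted p = 3.99e-09) in ATRA+DOX against untreated cells. DECR1 was the member called in ATRA+DOX against ATRA, at 0.36 ± 0.07 (adjusted p = 0.00584), and the interaction was 0.04 ± 0.11 (adjusted p = 0.927).

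DECR2, the peroxisomal 2,4-dienoyl-CoA reductase (chromosome 16, 401826 to 412487), had 28.9, 28.2 and 29.2 CPM in ATRA+DOX libraries, 29.9, 27.6 and 27.7 CPM in ATRA libraries, 29.8, 34.1 and 43.4 CPM in DOX libraries and 23.9, 22.1 and 24.6 CPM in untreated libraries. Its DOX libraries were the most spread, and the largest values were in DOX replicates 2 and 3; the change was 0.55 ± 0.11 (adjusted p = 0.00464) in DOX, 0.27 ± 0.11 (adjusted p = 0.0706) in ATRA and 0.28 ± 0.11 (adjusted p = 0.0457) in ATRA+DOX against untreated cells. ECH1, a dienoyl-CoA isomerase, had 86.1, 82.7 and 98.3 CPM in ATRA+DOX libraries, 87.2, 82.6 and 71.2 CPM in ATRA libraries, 75.5, 84.7 and 86.8 CPM in DOX libraries and 71.8, 65.4 and 64.7 CPM in untreated libraries. 1 ATRA library lay within the range of the untreated ones, and the change was 0.40 ± 0.09 (adjusted p = 0.00204) in ATRA+DOX, 0.26 ± 0.09 (adjusted p = 0.0429) in ATRA and 0.28 ± 0.10 (adjusted p = 0.0507) in DOX. ECI1, the mitochondrial enoyl-CoA isomerase, had 72.2, 89.03 and 96.5 CPM in ATRA+DOX libraries, 70.5, 71.5 and 60.1 CPM in ATRA libraries, 61.8, 79.00 and 67.96 CPM in DOX libraries and 62.6, 65.9 and 58.6 CPM in untreated libraries. Its ATRA+DOX libraries lay above all ATRA and untreated libraries, at 0.35 ± 0.11 (adjusted p = 0.0804) against ATRA and 0.46 ± 0.11 (adjusted p = 0.00254) against untreated cells.

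Among the 4 peroxisomal genes ACAA1 rose with either agent. ACAA1, the peroxisomal 3-ketoacyl-CoA thiolase (chromosome 3, 38103129 to 38137242), had 44.3, 41.02 and 47.5 CPM in ATRA+DOX libraries, 45.6, 39.5 and 43.4 CPM in ATRA libraries, 36.6, 37.1 and 35.3 CPM in DOX libraries and 27.4, 28.3 and 28.4 CPM in untreated libraries. Untreated libraries were the lowest and the DOX libraries lay between them and the libraries with ATRA. The change was 0.61 ± 0.09 (adjusted p = 2.3e-05) in ATRA, 0.38 ± 0.09 (adjusted p = 0.0115) in DOX and 0.66 ± 0.09 (adjusted p = 9.62e-06) in ATRA+DOX against untreated cells. Of its exon bases 21.2% are shared with other genes, and the strand setting of the counting is not given. ACOX3, the oxidase for branched chains, had 30.2, 32.5 and 34.4 CPM in ATRA+DOX libraries, 32.7, 31.98 and 32.5 CPM in ATRA libraries, 39.6, 38.9 and 39.2 CPM in DOX libraries and 35.3, 35.6 and 38.1 CPM in untreated libraries. Libraries with ATRA lay below those without it, and the call was in ATRA+DOX against DOX, at −0.28 ± 0.09 (adjusted p = 0.0309); ATRA against untreated cells gave −0.17 ± 0.09 (adjusted p = 0.163). The bifunctional enzymes EHHADH, at 6.91 to 11.9 CPM, and HSD17B4, at 66.1 to 86.9 CPM, were called in no comparison.

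The ATRA calls differed in how firmly they held. Those of ACAA1, DECR1, ECHS1, HADHB, HADH, CPT2 and SLC25A20 remained in all 20 alternative settings, the 12 that leave out 1 library included, and that of ACSL1 was lost only at equal depth. Leaving out 1 library ended the calls (log2 change without it) of ECH1 without ATRA+DOX replicate 2, ATRA replicate 1 or 2 or untreated replicate 2 or 3 (0.20 to 0.26), ACADS without ATRA replicate 1 or 2 or untreated replicate 3 (0.31 to 0.34), ACAD9 without ATRA replicate 1 or 2 or untreated replicate 1 or 2 (0.20 to 0.25), ACSL5 without ATRA replicate 3 or untreated replicate 1 or 3 (0.24 to 0.25), ACAD11 without ATRA replicate 1, 2 or 3 or untreated replicate 2 or 3 (1.18 to 1.50), SLC22A5 without ATRA replicate 3 or untreated replicate 2 (0.84 to 1.01) and ACADM without untreated replicate 3 (0.24). Without DOX replicate 3 and untreated replicate 3 together 9 members were called, and 8 with all libraries thinned to the depth of the smallest.

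Most DOX calls were lost when single libraries were left out or when the mitochondrial ribosomal RNA share entered the model. ACSL1 kept its call in all 20 settings, at 0.77 ± 0.13, adjusted p = 0.00471 with that share as a term of the model and 0.55 ± 0.12, adjusted p = 0.0391 without DOX replicate 3 and untreated replicate 3. The other 8 calls were lost in both of these fits, in which 77 and 169 of all genes were called, against 2446. DECR2, for example, gave 0.42 ± 0.17, adjusted p = 0.425 with the term, and SLC25A20 0.53 ± 0.22, adjusted p = 0.429. ETFA moved the most with the term, to 0.05 ± 0.11, adjusted p = 0.96. The share is lower in each DOX library than in each untreated one, so within these libraries the term and the group cannot be told apart in full. Leaving out 1 library ended the calls of CRAT without DOX replicate 2 or 3 or untreated replicate 2 or 3 (0.29 to 0.39), SLC25A20 without DOX replicate 2 or 3 or untreated replicate 2 or 3 (0.45 to 0.55), ETFA without DOX replicate 2 or 3 or untreated replicate 3 (0.25 to 0.27), HADHB without DOX replicate 2 or untreated replicate 3 (0.25 to 0.26), DECR1 without DOX replicate 2 or untreated replicate 3 (0.28 to 0.31) and ACAA1 without DOX replicate 2 (0.37). Without DOX replicate 2 the number of members called was 3, and without untreated replicate 3 it was 4.

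**Figure D4:**
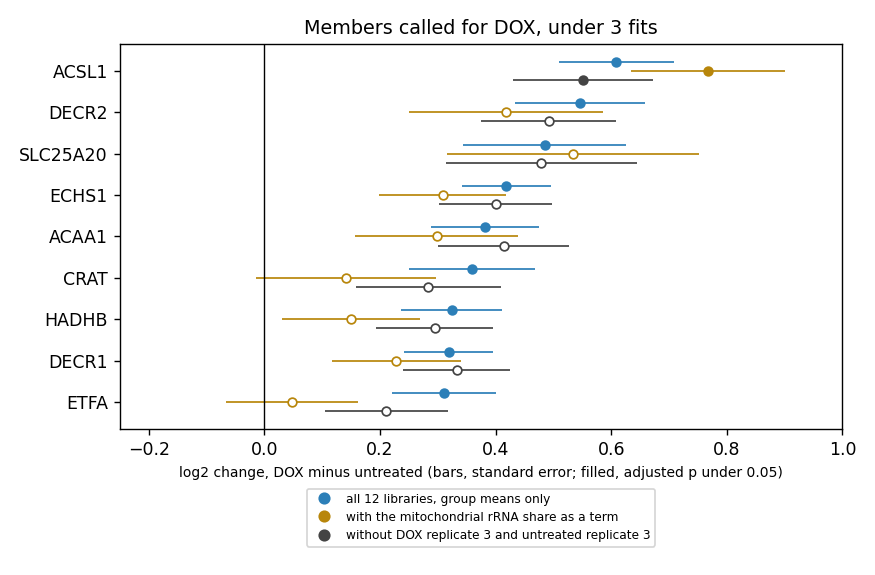
Log2 change in DOX against untreated cells (with standard error) of the 9 members called, in the fit of group means, with the mitochondrial ribosomal RNA share as a term, and without DOX replicate 3 and untreated replicate 3. Filled points passed an adjusted p of 0.05; all 9 values stay above 0 in each fit and ACSL1 alone stays called.

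With ATRA present, 1 member passed the test for DOX. In ATRA+DOX against ATRA the tested members had log2 changes between −0.36 and 0.36, and 21 of 32 were above 0. Only DECR1 was called, and leaving out 1 library ended that call in 1 case, DECR1 without ATRA replicate 3 (0.34), where 0 members were called. ACSL1 and ECI1 came closest to a call among the rest. At an unadjusted p under 0.05 the number of members was 8 of 32 by edgeR, beside 3053 of all 16104 genes, and 8 by DESeq2. DESeq2, the fit of these 2 groups alone, the fit at equal depth and that with the mitochondrial ribosomal RNA term each called 2 members, and leaving out DOX replicate 1 or DOX replicate 2 gave 3, and ATRA+DOX replicate 1 gave 2.

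**Figure D5:**
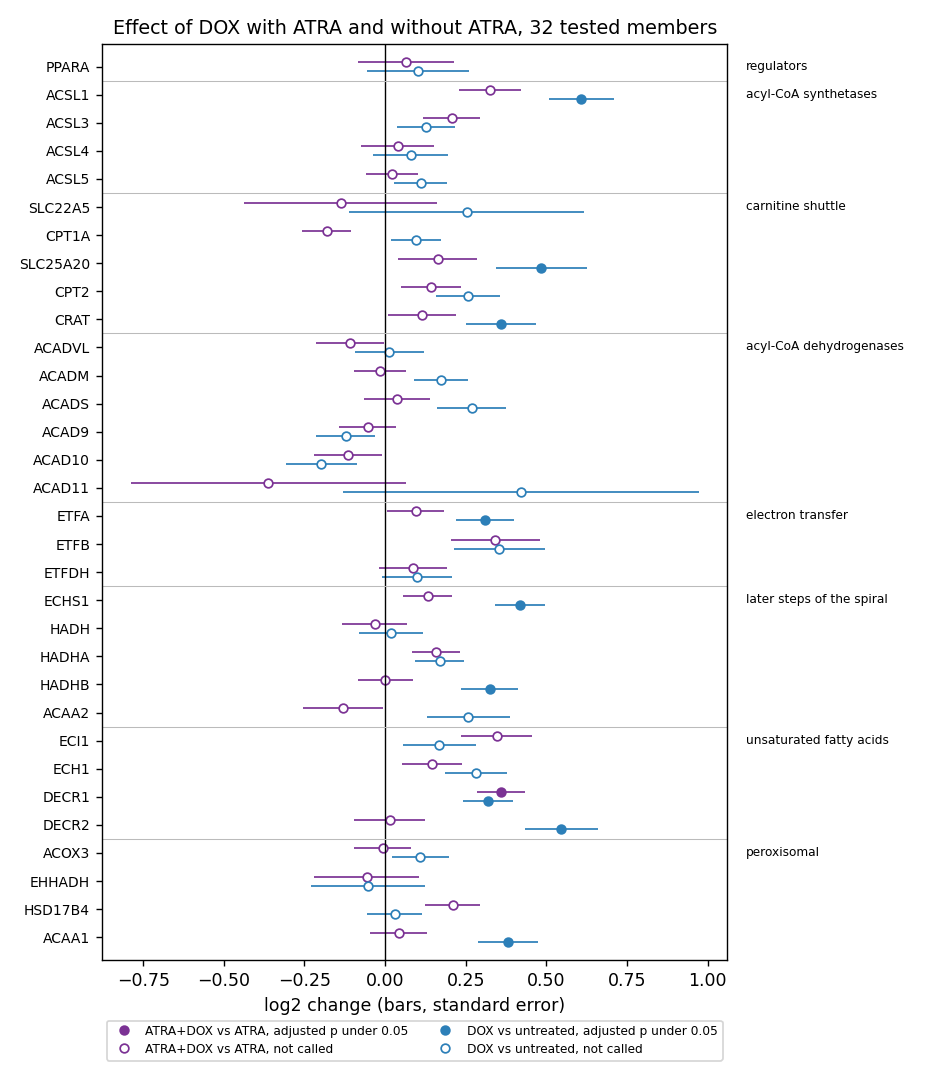
Log2 change with doxycycline, in the presence of ATRA (ATRA+DOX against ATRA) and in its absence (DOX against untreated), for the 32 tested members with standard errors. Filled points passed an adjusted p of 0.05: DECR1 with ATRA, and 9 members without it.

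The difference between the effect of DOX with and without ATRA, the interaction, was called for 0 of the 32 members by edgeR, beside 0.267% of all genes (0.0435% higher, 0.224% lower), with 6 at an unadjusted p under 0.05 by edgeR, beside 1735 of all 16104 genes, and 5 by DESeq2. It was negative for 26 of 32, with a median log2 value of −0.12 against −0.01 for all genes. DECR2 had the smallest p, at −0.53 ± 0.16 (adjusted p = 0.201). For SLC25A20 it was −0.32 ± 0.19, 95% interval −0.71 to 0.07, for ACSL1 −0.28 ± 0.14, 95% interval −0.57 to 0.01 and for ACAA1 −0.34 ± 0.13, 95% interval −0.61 to −0.07, intervals that leave room for effects of very different size. So the larger number of calls without ATRA is not shown to be a difference between the DOX effects. Leaving out DOX replicate 1 gave 1 member called lower.

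Averaged over both ATRA states, the mean DOX effect was called higher for 13 members and lower for 0, beside 21.9% of all genes, with 11.4% higher and 10.5% lower. They were ACSL1 (0.47 ± 0.07), DECR1 (0.34 ± 0.05), SLC25A20 (0.32 ± 0.09), ETFB (0.35 ± 0.10), ECHS1 (0.28 ± 0.05), DECR2 (0.28 ± 0.08), ECI1 (0.26 ± 0.08), CRAT (0.24 ± 0.08), ECH1 (0.21 ± 0.07), ACAA1 (0.21 ± 0.06), ETFA (0.20 ± 0.06), CPT2 (0.20 ± 0.07) and HADHA (0.16 ± 0.05). All 4 tested auxiliary genes were among them and 0 of the 6 dehydrogenases. With the mitochondrial ribosomal RNA term 1 member was called and without DOX replicate 3 and untreated replicate 3 there were 5. Single libraries mattered as well: 5 were called without DOX replicate 2, 6 without ATRA+DOX replicate 3, 7 without untreated replicate 3 and 8 without ATRA replicate 3.

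In the presence of DOX, 9 members were called for ATRA. In ATRA+DOX against DOX, SLC25A20, CPT2, ACAD9, ECHS1, DECR1 and ACAA1 were higher and CPT1A, HADH and ACOX3 lower. DECR1 and CPT1A kept their calls in all settings; HADH, CPT2 and SLC25A20 lost theirs only at equal depth, where 5 members were called. Single libraries ended the calls of ACAA1 without ATRA+DOX replicate 1 or 3, DOX replicate 1, 2 or 3 or untreated replicate 1, 2 or 3 (0.22 to 0.29), ACOX3 without ATRA+DOX replicate 1 or 2, ATRA replicate 1, 2 or 3, DOX replicate 1, 2 or 3 or untreated replicate 2 (−0.29 to −0.21), ECHS1 without ATRA+DOX replicate 1, 2 or 3, DOX replicate 1 or 3 or untreated replicate 1 (0.21 to 0.28) and ACAD9 without DOX replicate 2 (0.24).

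In ATRA+DOX against untreated cells the calls of ACAA1, DECR1, ECHS1, HADH, ACSL1, CPT2 and SLC25A20 remained in every setting, with DECR1 at 1.90-fold and SLC25A20 at 2.36-fold the untreated level. With the mitochondrial ribosomal RNA term 9 members were called, 7 of them among the 18. Leaving out 1 library ended the calls of CRAT without untreated replicate 3 (0.30), ETFB without ATRA+DOX replicate 1, 2 or 3 or untreated replicate 1, 2 or 3 (0.27 to 0.42), CPT1A without ATRA+DOX replicate 2 (−0.23), ACADM without untreated replicate 3 (0.23), SLC22A5 without ATRA+DOX replicate 1 or 3 or untreated replicate 2 or 3 (0.88 to 0.96) and DECR2 without ATRA+DOX replicate 1, 2 or 3, ATRA replicate 2 or untreated replicate 1, 2 or 3 (0.25 to 0.32).

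Neighbouring pathways were followed with the same fit, and their counts stand beside the 28.9% of all genes called in ATRA and 15.2% in DOX. The calls of listed genes, here and in the paragraphs below, were not followed in the alternative settings. Some of those settings called far fewer genes in DOX, as given above. Of 15 other mitochondrial oxidation genes, 9 rose and 1 fell in ATRA and 4 rose in DOX, with a median log2 change of 0.36 and 0.15. ACADSB, a branched-chain acyl-CoA dehydrogenase, rose by 0.63 ± 0.11 (adjusted p = 0.00021) and IVD, isovaleryl-CoA dehydrogenase, by 0.44 ± 0.09 (adjusted p = 0.000944) in ATRA. The 1 that fell was the mitochondrial carrier SLC25A29 (−0.42 ± 0.09 (adjusted p = 0.00132)). ACOT13, an acyl-CoA thioesterase, rose by 0.40 ± 0.09 (adjusted p = 0.00597) in DOX. Of 14 tested peroxisomal oxidation genes 4 rose and 1 fell in ATRA and 4 rose in DOX. Of the peroxisomal importers ABCD3 fell (−0.47 ± 0.09 (adjusted p = 0.000542)), while ABCD2 rose by 1.92 ± 0.39 (adjusted p = 0.000757) in ATRA. Catalase (CAT) rose by 0.53 ± 0.10 (adjusted p = 0.00252) in DOX. Of 5 tested ketone body genes 3 rose in ATRA, ACAT1 among them (0.37 ± 0.09 (adjusted p = 0.00244)), and 2 in DOX. Of 23 citrate cycle genes 6 rose and 1 fell in ATRA, where the count is near the share of all genes, with OGDH at 0.53 ± 0.09 (adjusted p = 0.000118). In DOX 6 of them rose, with SDHB at 0.46 ± 0.10 (adjusted p = 0.00699). Of 15 tested peroxisome biogenesis genes, PEX13 was the 1 called with ATRA alone (0.59 ± 0.11 (adjusted p = 0.000296)), and again the 1 called with DOX alone (0.44 ± 0.11 (adjusted p = 0.0147)).

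Genes that supply, store or control fatty acids moved in both directions, beside 28.9% of all genes called in ATRA and 15.2% in DOX. Of 15 tested fatty acid transport and activation genes 4 rose and 2 fell in ATRA, and 2 rose and 1 fell in DOX. CD36, a fatty acid receptor at the cell surface, rose by 0.97 ± 0.11 (adjusted p = 8.59e-07) in ATRA and was lower in ATRA+DOX than in ATRA, at −0.69 ± 0.11 (adjusted p = 0.00061). Of 10 tested lipolysis and lipid droplet genes 2 rose and 3 fell in ATRA and 1 rose in DOX, where the count is not above the share of all genes. MGLL, monoglyceride lipase, fell in ATRA (−2.51 ± 0.24 (adjusted p = 5.81e-08)) and was higher in ATRA+DOX than in ATRA (1.19 ± 0.26 (adjusted p = 0.0104)). Of 19 tested fatty acid synthesis genes 5 rose and 2 fell in ATRA, and 3 rose in DOX, where the count is near the share of all genes. MLXIPL, the gene of the transcription factor ChREBP, had 12.7, 9.14 and 9.06 CPM in ATRA libraries, against 0, 0 and 0.110 CPM in untreated libraries (adjusted p = 1.83e-11). The elongase ELOVL6 had 5.85, 4.78 and 4.92 CPM in ATRA libraries, against 0.966, 1.20 and 1.60 CPM in untreated libraries (adjusted p = 6.99e-06). Another elongase, ELOVL5, rose by 0.47 ± 0.09 (adjusted p = 0.000254) in ATRA. The desaturase SCD fell (−0.53 ± 0.09 (adjusted p = 0.000135)). ME1, malic enzyme, rose by 0.98 ± 0.18 (adjusted p = 0.00221) in DOX.

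Of 18 tested genes of the nuclear receptors that control oxidation and their cofactors, 3 rose and 2 fell in ATRA, and 1 rose and 4 fell in DOX, NRIP1 among those that fell. Of all genes 28.9% were called in ATRA and 15.2% in DOX, so the ATRA count is near the share of all genes. RXRA, the shared partner receptor, fell in ATRA (−1.17 ± 0.08 (adjusted p = 6.78e-10)), while the coactivator NCOA3 rose by 0.83 ± 0.12 (adjusted p = 2.18e-05) and the receptor PPARD by 0.47 ± 0.10 (adjusted p = 0.00129). ESRRA, which encodes ERRα, had 0.31 ± 0.08 (adjusted p = 0.00729) in ATRA and 0.36 ± 0.08 (adjusted p = 0.00864) in DOX, both called higher. Of 15 tested PPAR target genes outside the pathway 8 rose and 3 fell in ATRA, with TXNIP, an inhibitor of thioredoxin, at 1.14 ± 0.10 (adjusted p = 1.29e-08) and the channel AQP3 at −1.36 ± 0.14 (adjusted p = 2.31e-07). In DOX 1 rose, TXNIP (0.31 ± 0.10 (adjusted p = 0.0445)), and in ATRA+DOX against ATRA 3 were lower: UCP2 (−0.56 ± 0.09 (adjusted p = 0.000408)), TXNIP (−0.62 ± 0.10 (adjusted p = 0.000496)) and CD36. The interaction was called for TXNIP alone of these 15, at −0.93 ± 0.14 (adjusted p = 0.00451), beside 0.267% of all genes. UCP2, a mitochondrial carrier, had risen in ATRA against untreated cells (0.70 ± 0.09 (adjusted p = 2.12e-06)).

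The cells' own identity genes moved with the same treatments. Of 12 tested myeloid genes 6 rose and 4 fell in ATRA, and 3 rose and 1 fell in DOX. The counts in this paragraph stand beside 28.9% of all genes called in ATRA and 15.2% in DOX. The integrin ITGAM rose by 1.38 ± 0.11 (adjusted p = 2.14e-09) and the receptor CSF1R by 1.89 ± 0.16 (adjusted p = 7.2e-09) in ATRA. MPO, myeloperoxidase, and FCGR1A, an Fc receptor, fell in ATRA (−0.77 ± 0.14 (adjusted p = 0.000218) and −0.73 ± 0.14 (adjusted p = 0.000297)) and rose in DOX by 0.69 ± 0.14 (adjusted p = 0.00373) and 0.65 ± 0.13 (adjusted p = 0.0042). LYZ and HOXA9 were the others that fell in ATRA. Of the markers of other cell types, TRAC fell in ATRA (−3.11 ± 0.45 (adjusted p = 1.7e-05)), the 1 called there of 4 tested lymphoid genes. MT-RNR1 and MT-RNR2 fell in DOX, with log2 changes of −1.35 ± 0.28 (adjusted p = 0.00445) and −1.01 ± 0.23 (adjusted p = 0.00724). The part of these changes in the members' values was not tested, apart from the fits with the mitochondrial ribosomal RNA term.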

How the data were processed

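Per the labels' protocols, 12 MOLM14 total RNA libraries were read from both ends on a NovaSeq. The authors deposited raw counts, whole numbers per gene and library without normalization; FastQC, STAR, HTSeq and GRCh38 are named in the submitters' processing notes, without versions, annotation release or strand setting. The table held 61487 identifiers, 61369 with a symbol, and 23 empty columns; 0 columns with values lacked a sample.

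All 37 members were matched by symbol, and the members and gene lists were chosen with earlier results of these data known. The fit (edgeR 4.0.16, R 4.3.3) tested 16104 genes left by filterByExpr, with TMM scaling, and 1 quasi-likelihood fit of the 4 group means gave all contrasts, with Benjamini-Hochberg adjustment over all genes and a threshold of 0.05. Errors of log2 changes are the change over the square root of F, and errors of levels are SD (n = 3). The biological coefficient of variation was 9.54%. CPM per kilobase used the exon union of GENCODE 29. Depth ran from 2.69 to 19.36 (in units of 1e6 counts), a ratio of 7.21. No pair of libraries in a group agreed within counting noise (chi-square per degree of freedom from 2.32 to 23.18). Per-library values are given for every member called in a comparison of 1 group with another, and genes of a list are named from the 4 of lowest adjusted p in a comparison and then followed in the others: other mitochondrial oxidation, peroxisomal oxidation, ketone bodies, citrate cycle, peroxisome biogenesis, transport and activation, lipolysis, fatty acid synthesis, PPAR and cofactors, PPAR targets, mitochondrial ribosomal RNA, and 4 marker lists. Of these lists 2 genes are not reported here. Alternatives were DESeq2 1.42.0, library size alone, no filter, the replicate block, only the groups compared, equal depth, the log2 mitochondrial ribosomal RNA share as a term, 2 libraries left out together, and each library left out.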

Additional observations from a re-analysis of the deposited data

How the results depend on the processing

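Over 1037 pairs of a called member and an alternative setting, 869 kept the call, 168 lost it and 0 changed direction. The number of members called for ATRA against untreated, 15, was 9 without DOX replicate 3 and untreated replicate 3 and 8 at equal depth. For DOX against untreated, 9, it was 1 with the mitochondrial ribosomal RNA term, 1 without those 2 libraries and 5 with only the groups compared. For ATRA+DOX against ATRA, 1, it was 2 with the mitochondrial ribosomal RNA term, at equal depth, with only the groups compared and with DESeq2. For ATRA+DOX against DOX, 9, it was 5 at equal depth, and for ATRA+DOX against untreated, 18, it was 9 with the mitochondrial ribosomal RNA term. For the mean DOX effect, 13, it was 1 with that term, 5 without the 2 libraries and 6 at equal depth. Leaving out each library in turn gave 10 to 16 for ATRA, 3 to 13 for DOX, 0 to 3 for ATRA+DOX against ATRA, 6 to 8 for ATRA+DOX against DOX, 14 to 20 for ATRA+DOX against untreated, 0 to 1 for the interaction and 5 to 16 for the mean DOX effect. The fit at equal depth tested 30 members, and for the other changes the cause was not tested. Numbers of all genes called in the alternative settings are given only for DOX, with the term and without the 2 libraries. In those fits the number fell for all genes as well. Whether the members lost more calls than other genes was not tested.

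Of 18 pairs of libraries with the same replicate number in different groups, 4 had deviations from their group means that correlated above 0.1 (range −0.24 to 0.27). Untreated replicate 3 and ATRA+DOX replicate 1, with different numbers, reached 0.334. These values did not show a pairing by number, but deviations from means of 3 libraries cannot exclude one. With the replicate number as a block 14 members were called for ATRA, 9 for DOX, 1 for ATRA+DOX against ATRA, 9 for ATRA+DOX against DOX, 18 for ATRA+DOX against untreated, 0 for the interaction and 13 for the mean DOX effect. Under the block ECH1 lost its call in ATRA (0.26, adjusted p = 0.0517), and in ATRA+DOX against DOX ACAA1 lost its call (adjusted p = 0.0587) and ECI1 gained one (adjusted p = 0.0497), so 8 of the 9 were shared.

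Depth limits the members with few counts, SLC22A5 and ACAD11, which the fit at equal depth did not test. Genes that share exon bases with others, ACAD11 and CPT1B above all, cannot be separated from them.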
